A study of Mus musculus with 13 samples.

Results

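Epididymal fat of mice made to lack p62 in adipocytes was compared with fat of mice that kept it. The 6 fat libraries compared here are 6 of the 13 libraries of the series, whose other libraries came from prostate tumours; they were chosen by their labels. All mice carried the TRAMP transgene, which drives prostate cancer from a prostate-specific promoter. Their strain was C57BL/6, their diet regular and their age between 30 and 35 weeks. The 3 knockout libraries came from TRAMP+;p62aP2KO mice, in which the deletion is named for the promoter of aP2 (Fabp4), a fatty-acid-binding protein of adipocytes. The 3 wild-type libraries came from TRAMP+;p62f/f mice, whose floxed gene was left intact. aP2 promoters are also known to be active in some macrophages and endothelial cells. Nothing in the labels ties a library to a separate mouse, so the tests measure the spread between these libraries, which may be partly technical.

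p62, encoded by Sqstm1, is a scaffold protein that carries ubiquitinated cargo to autophagosomes and takes part in several signalling pathways. White fat stores triglyceride. Its adipocytes make fatty acids from glucose through acetyl-CoA, esterify them to glycerol, and release them again when catecholamines raise cAMP. Around the adipocytes lie progenitors, vessels and macrophages, and macrophages that take up lipid switch on a lysosomal and lipid-handling set of genes.

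Sqstm1 was read first in each library, as a check of the labels. It stood at 4.53, 54.5 and 2.58 FPKM in knockout libraries 1 to 3, against 73.6, 1.77 and 84.3 FPKM in wild-type libraries 1 to 3. The libraries numbered 2 went against their labels: the library labelled knockout 2 was near the levels of wild-type libraries 1 and 3, and the library labelled wild type 2 was the lowest of all. With labels as deposited, the log2 difference was -1.33 (SE 1.5, n = 3 each, limma adjusted p = 0.698). Without both libraries numbered 2 it was -4.16 (SE 0.33, n = 2 each). That pair was singled out by its Sqstm1 values, so this difference and its SE follow from the choice and are no test of Sqstm1. Below, "knockout 2" and "wild type 2" mean the libraries carrying those labels, every direction is that of the labels, and the main results are also given with that pair left out.

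The tissue label fitted its markers. Adiponectin (Adipoq) stood at 1919, 1632 and 1823 FPKM in knockout fat and at 2896, 2078 and 2982 FPKM in wild-type fat, and Fabp4 lay between 4755 and 8288 FPKM in all 6 libraries. Depth could be compared only relatively, from the steps between low values. Set against the shallowest library, knockout 3, it was 1.19-fold in knockout 1 and 3.29-fold in knockout 2, and between 1.15-fold and 1.32-fold in the wild-type libraries. Low genes are therefore less precise outside knockout 2. In a bulk sample, fewer cells of a type and less RNA per cell cannot be told apart.

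**Figure D1:**
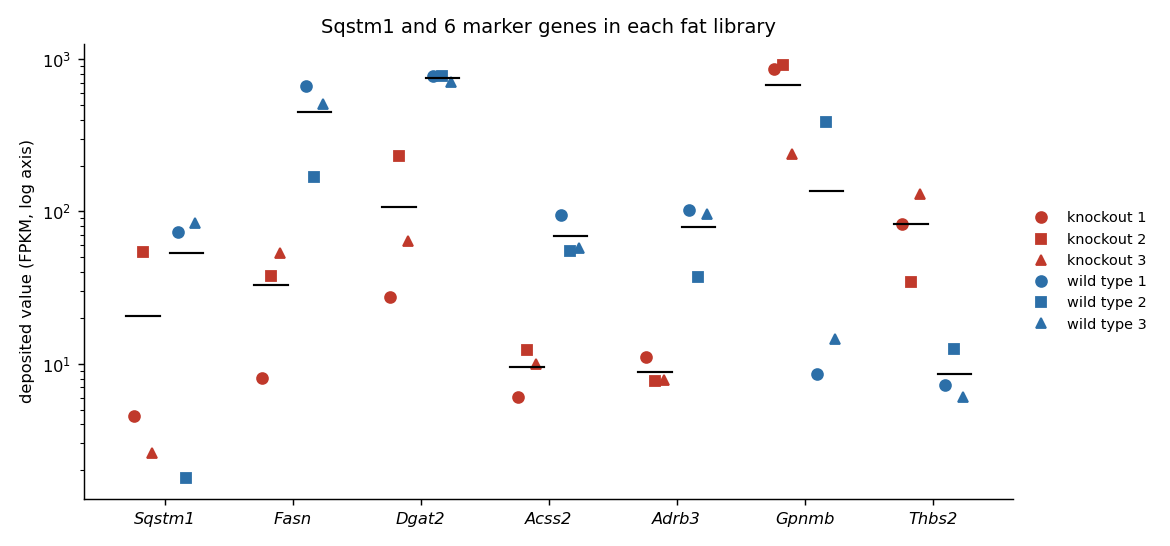
Deposited FPKM (log axis) of Sqstm1 and 6 marker genes in each fat library, knockout libraries in red at the left of each pair and wild-type libraries in blue at the right. Symbols give the library number and black lines the group means. The squares of Sqstm1, the libraries numbered 2, lie with the opposite group (54.5 FPKM in knockout 2 and 1.77 FPKM in wild type 2).

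The sequences below belong to the results that follow. Snord61, the one entry that passed the test, is a small nucleolar RNA on chromosome X, chrX:57391449-57391519 on the minus strand of GRCm38, in an intron of Rbmx. It is shown whole, 5′ to 3′ from GENCODE M21, with its C box (TGATGA) and D box (CTGA) in capitals.
Snord61: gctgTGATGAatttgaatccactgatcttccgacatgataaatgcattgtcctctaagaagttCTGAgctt

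Of the genes whose differences lay together, windows of the 250 bases before the start are shown for 3 lipogenic genes and 1 histone gene, from RefSeq on GRCm38.p6. Capitals mark CCAAT on either strand, the box bound by NF-Y, and in Slc25a1 also CACGTG, an E-box. The Fasn window is chr11:120824548-120824797 on the minus strand, and that of Acss2 is chr2:155517793-155518042 on the plus strand. That of Slc25a1 is chr16:17928220-17928469 on the minus strand, and that of Hist1h1b is chr13:21780626-21780875 on the minus strand. The whole span listed for Fasn reaches base 120825166, so its window lies before a start inside that span.
Fasn: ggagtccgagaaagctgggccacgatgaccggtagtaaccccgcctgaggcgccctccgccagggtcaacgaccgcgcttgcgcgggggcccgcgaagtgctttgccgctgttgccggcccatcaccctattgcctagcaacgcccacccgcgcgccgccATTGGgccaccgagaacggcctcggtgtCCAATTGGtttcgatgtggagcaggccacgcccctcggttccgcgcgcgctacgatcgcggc
Acss2: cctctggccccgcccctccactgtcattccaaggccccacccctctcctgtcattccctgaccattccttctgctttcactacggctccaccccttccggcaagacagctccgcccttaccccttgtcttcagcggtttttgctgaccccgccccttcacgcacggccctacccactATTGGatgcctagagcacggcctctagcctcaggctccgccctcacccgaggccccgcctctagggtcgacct
Slc25a1: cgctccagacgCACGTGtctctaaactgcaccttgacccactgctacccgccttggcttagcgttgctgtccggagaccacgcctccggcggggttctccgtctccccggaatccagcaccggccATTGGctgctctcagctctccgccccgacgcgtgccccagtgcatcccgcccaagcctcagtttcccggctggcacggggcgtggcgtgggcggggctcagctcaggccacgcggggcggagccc
Hist1h1b: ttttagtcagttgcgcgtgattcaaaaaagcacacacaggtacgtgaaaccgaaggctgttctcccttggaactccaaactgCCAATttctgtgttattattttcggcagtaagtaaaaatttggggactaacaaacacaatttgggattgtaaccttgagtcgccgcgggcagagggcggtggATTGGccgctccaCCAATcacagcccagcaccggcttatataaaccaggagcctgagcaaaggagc

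CCAAT or its reverse complement was present in 8 of the 14 windows found for the 17 genes of acetyl-CoA supply and fatty acid synthesis, in 53 of 68 windows found for 77 histone genes, and in 34.5% of all 27025 windows of this length (36.6% of those of tested genes). It was in 2 of 10 windows of triglyceride assembly genes and in 7 of 18 of lipid-associated macrophage genes. Overlaps with other motifs were not removed. CACGTG was present in 2 of the 14, in 6.05% of all windows and in 8.34% of those of tested genes. TCACNCCAC, a core of the sterol element bound by SREBP proteins, was in 0 of the 14 and in 1.04% of all, which says only that these letters are not in these windows.

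Of the 13617 genes tested with limma, 1 was called at an adjusted p under 0.05 (0.00734%). At an unadjusted p under 0.05, 937 lay higher in knockout fat (6.88%) and 1108 lower (8.14%). The groups did not overlap in 2886 genes (21.2%), with the knockout above in 1344 (9.87%) and below in 1542 (11.3%). Without both libraries numbered 2, 2 genes were called (0.0147%), and 808 genes lay higher (5.93%) and 866 lower (6.36%) at an unadjusted p under 0.05. The median log2 difference of all tested genes was 0.0065. Counts for groups of genes below are at the unadjusted threshold and are to be read against these shares. The count over all genes also moved when single libraries were left out. It was highest without knockout 3 and lowest without wild type 3, as the closing section gives. Shifts of the group counts are to be read against that. Snord61 was listed at 0 in all 3 knockout libraries and stood at 1698, 1063 and 1235 FPKM in wild-type libraries 1 to 3 (limma adjusted p = 4.89e-06). Its 71 bases are fewer than the 75 of a read, and the libraries were made from polyadenylated RNA. How its values arose in such libraries was not tested. Of 200 tested entries under 300 bases, 112 were listed at 0 in at least 1 library, and some varied as widely within a group. Snord68 stood at 17780, 855 and 7563 FPKM in knockout fat and at 7901, 0 and 0 FPKM in wild-type fat, and Snord70 at 3193, 273 and 3803 FPKM against 0, 1358 and 0 FPKM in wild-type fat. Rbmx, the host gene of Snord61, stood at 24.2, 17.3 and 24.9 FPKM in knockout fat against 15.3, 17.6 and 23.5 FPKM in wild-type fat (log2 difference 0.23, SE 0.25). The next smallest adjusted p was 0.127, and the other genes named below therefore did not pass.

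Enzymes that turn glucose carbon into fatty acids lay low in knockout fat. Of 17 tested genes of acetyl-CoA supply and fatty acid synthesis, 11 lay lower at an unadjusted p under 0.05 and 0 higher, and in 10 the groups did not overlap. The median log2 difference was -1.96, and -2.18 without both libraries numbered 2. Slc25a1, the carrier that exports citrate from mitochondria, stood at 11, 25.4 and 10.1 FPKM in knockout fat and at 106, 53.1 and 73.8 FPKM in wild-type fat (log2 difference -2.31, SE 0.41). Acly, which splits that citrate into acetyl-CoA, stood at 29.8, 34.1 and 22 FPKM against 175, 63.0 and 129 FPKM in wild-type fat (log2 difference -1.96, SE 0.40). Acss2 makes acetyl-CoA from acetate. It stood at 6.06, 12.3 and 10.02 FPKM in knockout fat and at 94.4, 55.3 and 57.5 FPKM in wild-type fat (log2 difference -2.75, SE 0.33).

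Me1, the malic enzyme that supplies NADPH, stood at 4.0, 9.64 and 16.3 FPKM in knockout fat against 98.3, 75.8 and 95.3 FPKM in wild-type fat (log2 difference -3.21, SE 0.43). Acaca, the acetyl-CoA carboxylase of fatty acid synthesis, stood at 16.0, 14.3 and 26.8 FPKM against 174, 40.6 and 132 FPKM in wild-type fat (log2 difference -2.36, SE 0.54). Fasn builds palmitate. Its 8.07, 37.4 and 53.3 FPKM in knockout fat stood against 662, 168 and 509 FPKM in wild-type fat (log2 difference -3.85, SE 0.76). In each of these genes every knockout library lay below every wild-type library, and in each the lowest of the wild-type values was that of wild type 2.

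Genes that lengthen and desaturate the chain showed the same order. The elongase Elovl6 stood at 1.82, 4.22 and 2.31 FPKM in knockout fat and at 33.4, 13.4 and 34.1 FPKM in wild-type fat (log2 difference -2.83, SE 0.41). Scd2, a stearoyl-CoA desaturase, stood at 7.76, 32.6 and 14.2 FPKM against 167, 141 and 137 FPKM in wild-type fat (log2 difference -3.17, SE 0.46). Its abundant relative Scd1 overlapped: 1611, 758 and 6407 FPKM in knockout fat against 15275, 5609 and 13945 FPKM in wild-type fat. Scd1 and Scd2 are close in sequence, and how reads shared between them were counted is not given. Tecr, the last reductase of elongation, had a log2 difference of -1.24 (SE 0.23). Not every lipogenic gene lay low. Acacb, the mitochondrial acetyl-CoA carboxylase, stood at 11.6, 8.90 and 84.4 FPKM in knockout fat and at 24.9, 7.91 and 23.3 FPKM in wild-type fat, and its order turned with knockout 3. Fads1, a desaturase of polyunsaturated fatty acids, had a log2 difference of -0.23 (SE 0.33), and Acss1, the mitochondrial acetyl-CoA synthetase, one of 0.36 (SE 0.28).

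The regulators of this programme were split. Srebf1, which encodes a sterol-sensitive activator of lipogenic genes, stood at 12.2, 16.9 and 17.9 FPKM in knockout fat and at 73.8, 30.7 and 70.0 FPKM in wild-type fat (log2 difference -1.75, SE 0.37). Mlxipl, which encodes the carbohydrate-responsive ChREBP, stood at 3.18, 3.82 and 8.75 FPKM against 19.9, 8.83 and 18.5 FPKM in wild-type fat (log2 difference -1.45, SE 0.42). Thrsp and Insig1, which lie downstream of such regulators, had log2 differences of -1.98 (SE 0.61) and -2.03 (SE 0.54). Srebf2, the sterol-pathway relative of Srebf1, had one of -0.26 (SE 0.28), and the liver X receptor Nr1h3 one of -0.18 (SE 0.27). Of 15 tested regulators 6 lay lower and 1, Usf1, higher. The 6 became 3 if wild type 1 or wild type 3 was left out.

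Triglyceride assembly followed, with 8 of 15 tested genes lower, 0 higher and a median of -1.05 (-1.13 without both libraries numbered 2). The count was 5 without knockout 1, without knockout 2 or without wild type 1. Gpd1, which makes the glycerol backbone, stood at 69.3, 278 and 130 FPKM in knockout fat and at 482, 562 and 442 FPKM in wild-type fat (log2 difference -1.85, SE 0.49). Agpat2 adds the second acyl chain. It stood at 16.6, 57.8 and 54.7 FPKM in knockout fat against 369, 201 and 174 FPKM in wild-type fat (log2 difference -2.61, SE 0.52). Dgat2 adds the third, and stood at 27.6, 231 and 64.2 FPKM against 774, 778 and 702 FPKM in wild-type fat (log2 difference -3.31, SE 0.69). Dgat1, its unrelated counterpart, overlapped, with 12, 12.9 and 22.3 FPKM in knockout fat and 48.8, 33.6 and 20.7 FPKM in wild-type fat. Bscl2 (seipin, a lipid droplet protein) had a log2 difference of -1.29 (SE 0.30). The lipins Lpin1, Lpin2 and Lpin3 lay at -0.92, 0.36 and -0.15.

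**Figure D2:**
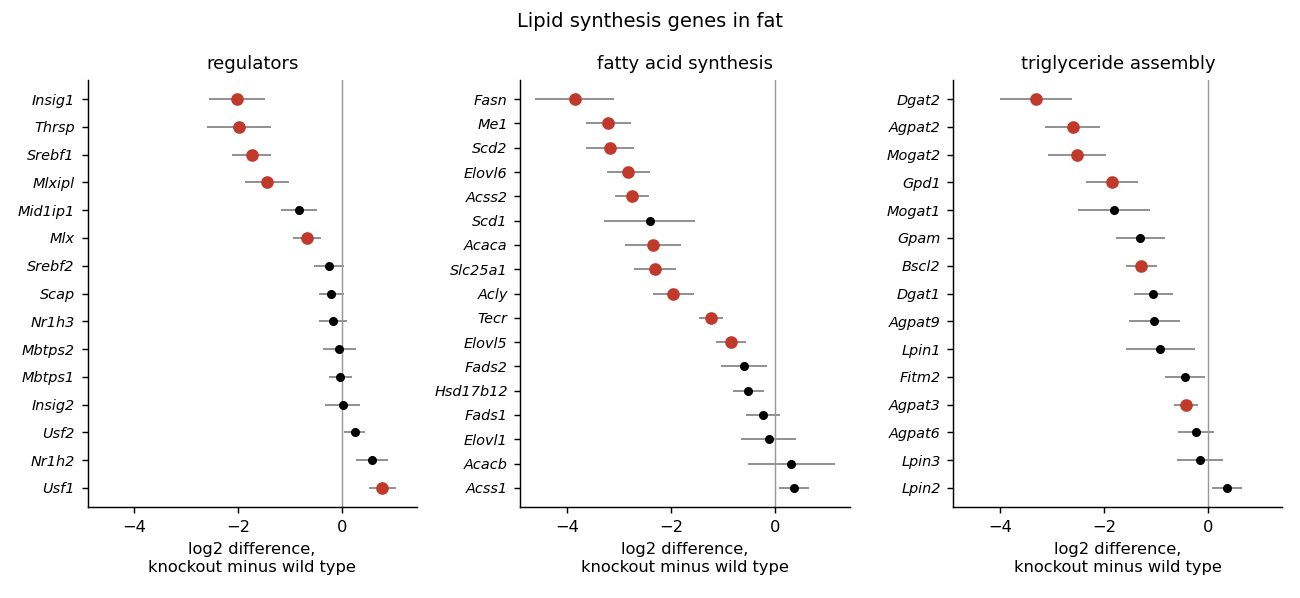
Log2 difference (knockout minus wild type, on log2(FPKM + 1), n = 3 each) of the tested genes of 3 lists, with bars for the SE. Red points are genes whose groups did not overlap. Fasn (-3.85) and Dgat2 (-3.31) lie farthest to the left, and Usf1 (0.77) is the one red point to the right.

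Pnpla3, a lipase-like protein of lipid droplets that lipogenic regulators control, belonged to none of the lists and had the most negative difference of the genes chosen by size, a choice that left out small RNA entries. It stood at 2.35, 9.14 and 1.09 FPKM in knockout fat and at 128, 42.6 and 85.8 FPKM in wild-type fat (log2 difference -4.25, SE 0.63, limma adjusted p = 0.131). Sc5d, an enzyme of late cholesterol synthesis, stood at 8.91, 26.3 and 13.8 FPKM against 109, 88.8 and 109 FPKM in wild-type fat (log2 difference -2.70, SE 0.37).

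Phospholipid and sphingolipid genes lay nearer to no difference, with medians of -0.14 and 0.10 that changed sign when single libraries were left out. The first became 0.03 without wild type 3, and the second -0.01 without knockout 1 and -0.04 without wild type 1. Chpt1, which completes phosphatidylcholine, stood apart, with 87.1, 100 and 119 FPKM in knockout fat against 600, 338 and 380 FPKM in wild-type fat (log2 difference -2.06, SE 0.31). Among ceramide genes the desaturase Degs1 lay low (log2 difference -1.07, SE 0.29) and Sphk1, which makes sphingosine 1-phosphate, lay high at 5.44, 4.52 and 8.52 FPKM in knockout fat against 1.64, 1.74 and 2.74 FPKM in wild-type fat (log2 difference 1.22, SE 0.30).

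Lipid uptake showed both directions. Lpl, the lipase that frees fatty acids from lipoproteins, stood at 922, 1310 and 1317 FPKM in knockout fat and at 2996, 3005 and 2482 FPKM in wild-type fat (log2 difference -1.27, SE 0.39). The fatty acid transporter Slc27a1 lay the other way, at 212, 153 and 393 FPKM in knockout fat against 93.7, 85.0 and 80.9 FPKM in wild-type fat (log2 difference 1.42, SE 0.37). So did the lipoprotein receptor Lrp1 (log2 difference 0.93, SE 0.25), whereas the receptor Vldlr lay low (-0.82, SE 0.23).

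Pyruvate entry into mitochondria was among the most even differences. Mpc1 stood at 23.6, 32.3 and 37.2 FPKM in knockout fat and at 122, 114 and 109 FPKM in wild-type fat (log2 difference -1.88, SE 0.24, limma adjusted p = 0.127). Mpc2, the other subunit of the same pyruvate carrier, stood at 22.5, 31.8 and 24.9 FPKM against 86.4, 84.6 and 73.4 FPKM in wild-type fat (log2 difference -1.60, SE 0.23). Pdk4, the kinase that switches off pyruvate dehydrogenase, had the opposite order, with 91.1, 28.7 and 232 FPKM in knockout fat against 7.62, 19.1 and 7.39 FPKM in wild-type fat (log2 difference 2.92, SE 0.73). All of these genes were named among those whose groups did not overlap, so their separation comes from that choice. For Pdk4 the libraries numbered 2 lay closest to each other.

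Beyond the pyruvate carrier, 11 of 40 tested mitochondrial carriers lay lower and 3 higher (median -0.34, -0.19 without both libraries numbered 2). The 3 higher carriers were 5 without knockout 2 and 1 without knockout 1, without knockout 3 or without wild type 2. Mitochondrial ribosomal proteins lay close to the background, with 9 of 76 lower, 1 higher and a median of -0.13. Apoo, a protein of the inner-membrane cristae, stood at 0.54, 1.83 and 0.64 FPKM in knockout fat against 5.70, 3.98 and 5.43 FPKM in wild-type fat.

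Of 41 tested peroxisomal genes, chosen by name pattern, 8 lay lower and 1 higher (median -0.43, -0.36 without both libraries numbered 2). The 8 were 5 without knockout 1, 3 without wild type 2 and 2 without that pair. Abcd2, which carries very long chain acyl-CoA into peroxisomes, stood at 62.5, 74.1 and 96.8 FPKM in knockout fat against 295, 202 and 308 FPKM in wild-type fat (log2 difference -1.77, SE 0.29). Gnpat, which starts ether lipid synthesis, had a log2 difference of -0.93 (SE 0.22).

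Genes of thiol redox defence lay lower in 10 of 42 cases and higher in 1, with a median of -0.52 (-0.42 without both libraries numbered 2); without knockout 2 the 10 were 6. Prdx6, a peroxiredoxin, stood at 52.8, 41.9 and 82.4 FPKM in knockout fat and at 157, 185 and 144 FPKM in wild-type fat (log2 difference -1.49, SE 0.30). Gpx4, the peroxidase that reduces lipid hydroperoxides, stood at 96.4, 68.2 and 66.8 FPKM against 160, 203 and 114 FPKM in wild-type fat (log2 difference -1.02, SE 0.30). The 1 higher gene was Srxn1, sulfiredoxin, a known target of NRF2, at 42.7, 38.0 and 28.2 FPKM in knockout fat and 18.4, 22.3 and 21.1 FPKM in wild-type fat. Several of the lower members are glutathione transferases of the Gstm family, whose copies are close in sequence, so their separate values are uncertain.

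Receptors through which hormones control lipolysis formed another set of low values. Of 28 tested genes of hormone reception and cAMP signalling, 9 lay lower and 1 higher (median -0.47, -0.59 without both libraries numbered 2). Adrb3, the main adrenergic receptor of mouse white fat, stood at 11.1, 7.75 and 7.81 FPKM in knockout fat and at 102, 37.3 and 96.9 FPKM in wild-type fat (log2 difference -2.90, SE 0.41, limma adjusted p = 0.127). Adrb1 stood at 1.93, 1.96 and 3.50 FPKM against 5.13, 11.2 and 6.61 FPKM in wild-type fat (log2 difference -1.29, SE 0.34).

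Receptors that restrain lipolysis lay low together with those that start it. The prostaglandin E receptor Ptger3, which lowers cAMP, stood at 5.07, 17.5 and 8.36 FPKM in knockout fat and at 102, 43.2 and 94.5 FPKM in wild-type fat (log2 difference -2.90, SE 0.48). The adenosine receptor Adora1 stood at 8.42, 11.5 and 17.9 FPKM against 26.1, 25.9 and 24.5 FPKM in wild-type fat (log2 difference -1.02, SE 0.28). Sucnr1, the succinate receptor, had a log2 difference of -0.99 (SE 0.24), and Npr3, which clears natriuretic peptides, one of -2.27 (SE 0.63). The 1 higher gene was the adenylyl cyclase Adcy3, at 30.8, 27.4 and 11.2 FPKM in knockout fat against 9.34, 8.54 and 5.42 FPKM in wild-type fat.

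Insulin signalling genes lay lower in 5 of 31 cases and higher in 0, with a median of -0.26. The 5 were 13 if knockout 3 was left out, and 3 if knockout 1 or wild type 1 was. Akt2, the insulin-responsive kinase of fat, stood at 31.0, 26.3 and 24.8 FPKM in knockout fat and at 62.9, 54.2 and 65.0 FPKM in wild-type fat (log2 difference -1.12, SE 0.21). Slc2a4, the insulin-regulated glucose transporter, stood at 13.8, 14.3 and 33.0 FPKM against 46.7, 39.0 and 52.0 FPKM in wild-type fat (log2 difference -1.24, SE 0.35). Insr and Irs1, the receptor and its main substrate, had log2 differences of -0.43 (SE 0.39) and -0.36 (SE 0.44). Ppp1r3b, which targets phosphatase to glycogen, was outside the lists and stood at 3.13, 4.01 and 1.94 FPKM in knockout fat against 14.9, 12.3 and 15.7 FPKM in wild-type fat (log2 difference -1.95, SE 0.26).

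Of 14 tested genes that mark adipocytes, 5 lay lower and 0 higher (median -1.0, -1.15 without both libraries numbered 2). The 5 were 2 if knockout 1 or wild type 1 was left out, and 3 if knockout 2 or wild type 3 was. Retn, which encodes resistin, stood at 165, 131 and 237 FPKM in knockout fat and at 784, 436 and 1045 FPKM in wild-type fat (log2 difference -2.03, SE 0.41). Pparg, the master regulator of adipocyte formation, stood at 59.4, 100 and 172 FPKM against 341, 163 and 291 FPKM in wild-type fat (log2 difference -1.32, SE 0.46), with the groups overlapping. Plin1, which coats the droplet, and Adipoq had log2 differences of -0.75 (SE 0.41) and -0.55 (SE 0.41), and Fabp4 one of 0.12 (SE 0.56). Leptin (Lep) stood at 171, 805 and 368 FPKM in knockout fat and at 476, 2285 and 705 FPKM in wild-type fat, highest in the library numbered 2 of each group.

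Among transcription factors of adipogenesis, Cebpb, an early one, lay high at 47.0, 46.3 and 47.4 FPKM in knockout fat against 20.9, 27.8 and 11.6 FPKM in wild-type fat (log2 difference 1.26, SE 0.32). The partners of PPARγ lay low: Rxrg at -1.31 (SE 0.30) and Rxra at -0.83 (SE 0.24). Caveolin genes lay low as well. Cav1, the coat protein of caveolae, stood at 304, 774 and 584 FPKM in knockout fat and at 1670, 2110 and 1582 FPKM in wild-type fat (log2 difference -1.78, SE 0.44). Cav2 and the coat adaptor Prkcdbp had log2 differences of -2.05 (SE 0.54) and -1.21 (SE 0.38). Ptrf and Sdpr, of the same list, overlapped, with log2 differences of -0.57 (SE 0.46) and -0.23 (SE 0.40). Of 14 tested genes of caveolae, aquaporins and carbonic anhydrases, 5 lay lower and 0 higher (median -0.49).

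The circadian clock was read because its output genes are strong in fat and the labels give no time of collection. Dbp, a clock output, stood at 14.7, 12.1 and 14.4 FPKM in knockout fat and at 68.9, 19.6 and 89.0 FPKM in wild-type fat (log2 difference -1.78, SE 0.52). Arntl, the core activator whose RNA runs opposite to Dbp, stood at 12.5, 16.4 and 8.02 FPKM against 3.27, 9.64 and 3.17 FPKM in wild-type fat (log2 difference 1.16, SE 0.43). Wild type 2 lay nearest to the knockout libraries for both. Of 18 tested clock genes 4 lay lower and 1 higher; the 4 were 9 if knockout 3 was left out, and 2 if knockout 1, knockout 2, wild type 1 or wild type 3 was. The part of collection time in the lipogenic differences was not tested.

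Immediate early genes, which respond within minutes to handling as well as to signals, lay higher in 6 of 21 cases and lower in 0 (median 0.48, 0.57 without both libraries numbered 2). Fos stood at 37.2, 34.1 and 24.7 FPKM in knockout fat and at 4.66, 15.6 and 1.32 FPKM in wild-type fat (log2 difference 2.44, SE 0.64). Junb, its partner, stood at 44.5, 71.1 and 40.5 FPKM against 22.3, 35.0 and 15.3 FPKM in wild-type fat (log2 difference 1.11, SE 0.36). Myc had a log2 difference of 0.88 (SE 0.25).

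Genes of cytosolic ribosomal proteins, chosen by name pattern, lay higher in 13 of 80 cases and lower in 1 (median 0.40, 0.60 without both libraries numbered 2). The 13 were 2 if knockout 1 was left out, 4 if wild type 1 was and 3 if wild type 3 was. Rps3a1 stood at 262, 254 and 287 FPKM in knockout fat and at 134, 156 and 162 FPKM in wild-type fat (log2 difference 0.83, SE 0.24). Many of these genes have processed copies, and how shared reads were counted is not given. Of 16 host genes of small nucleolar RNAs, 0 lay higher and 2 lower. One of them, Snhg3, stood at 3.76, 3.55 and 4.48 FPKM in knockout fat against 16.4, 14.9 and 12.9 FPKM in wild-type fat (log2 difference -1.67, SE 0.21, limma adjusted p = 0.127).

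**Figure D3:**
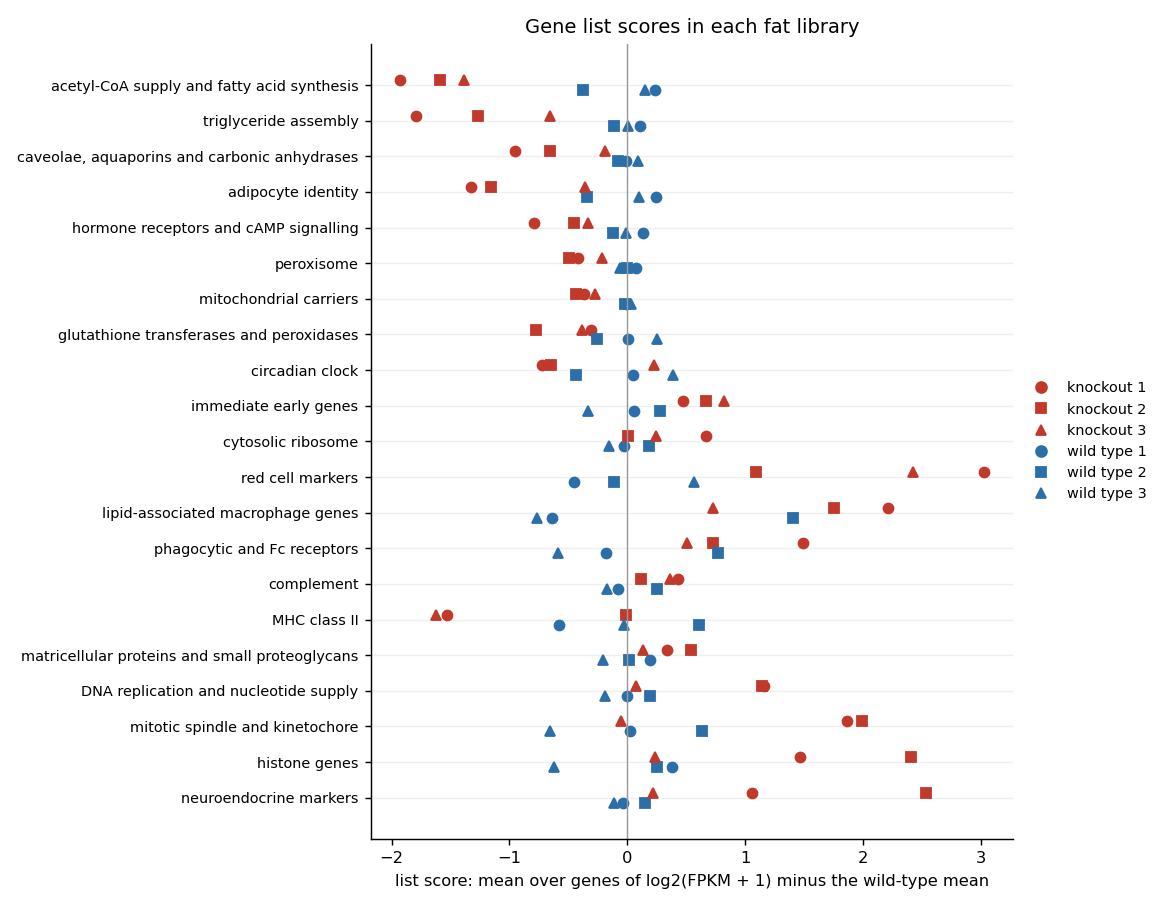
Score of 21 gene lists in each fat library: the mean over a list's genes of log2(FPKM + 1) minus the wild-type mean. Knockout libraries are in red above wild-type libraries in blue, and symbols give the library number. Fatty acid synthesis separates the groups, whereas for lipid-associated macrophage genes wild type 2 (1.41) lies between knockout 3 (0.73) and knockout 2 (1.76).

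Macrophage genes lay higher in knockout fat, but not in a way that separated the groups. Of 24 tested genes of lipid-associated macrophages, 9 lay higher and 1 lower, while in 3 alone the knockout libraries all lay above. The median was 1.75, and 2.38 without both libraries numbered 2. The 9 were 16 if wild type 2 was left out, and 14 if knockout 2 was left out as well. They were 3 if knockout 1 or knockout 2 was left out, and 2 if wild type 1 or wild type 3 was. Gpnmb, a glycoprotein of lipid-laden macrophages, stood at 864, 919 and 237 FPKM in knockout fat against 8.63, 387 and 14.5 FPKM in wild-type fat. Trem2, a lipid-sensing receptor, stood at 381, 229 and 60.9 FPKM against 10.9, 115 and 13.8 FPKM in wild-type fat. Wild type 2 was thus the wild-type library with high macrophage genes, and knockout 3 the lowest of the knockout libraries. Sqstm1 stood at 1.77 FPKM in wild type 2 and 2.58 FPKM in knockout 3. In knockout 2, which had high macrophage genes, it stood at 54.5 FPKM.

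Spp1, which encodes osteopontin, showed the widest spread: 1052, 99.9 and 18.3 FPKM in knockout fat against 5.12, 18.3 and 6.39 FPKM in wild-type fat. Pla2g7, a secreted phospholipase, was more even, at 121, 55.4 and 102 FPKM in knockout fat and 15.2, 39.0 and 13.7 FPKM in wild-type fat (log2 difference 2.08, SE 0.46). Rgs1, a regulator of chemokine receptor signalling, stood at 232, 103 and 69.3 FPKM against 1.30, 51.7 and 1.58 FPKM in wild-type fat (log2 difference 4.14, SE 1.17). Adam8, a membrane protease of leukocytes, stood at 164, 62.8 and 32.2 FPKM against 3.50, 30.6 and 2.20 FPKM in wild-type fat (log2 difference 3.20, SE 0.92). In these genes wild type 2 was again the highest wild-type library.

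Phagocytic and Fc receptors lay higher in 8 of 28 cases and lower in 0 (median 0.79, 1.32 without both libraries numbered 2). The 8 were 13 if wild type 2 was left out, 3 if knockout 1 was, 4 if wild type 1 was and 2 if wild type 3 was. Clec4d, a receptor of myeloid cells, stood at 50.4, 13.9 and 36.1 FPKM in knockout fat against 5.83, 8.46 and 1.26 FPKM in wild-type fat (log2 difference 2.54, SE 0.63). Cathepsins and other lysosomal hydrolases lay higher in 8 of 51 cases and lower in 2 (median 0.46). Those 8 were 18 if wild type 2 was left out, 13 if knockout 3 was, and 1 if knockout 1, wild type 1 or wild type 3 was. Lgmn, a lysosomal protease, stood at 478, 250 and 168 FPKM in knockout fat and at 57.1, 138 and 39.0 FPKM in wild-type fat (log2 difference 1.99, SE 0.55).

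Of 20 tested markers of tissue-resident macrophages, 14 lay above 0 and 6 below (median 0.74), with 5 higher and 4 lower. The 5 were 3 if wild type 1 or wild type 3 was left out, and the 4 were 2 if knockout 2 or knockout 3 was and 1 if wild type 1 or wild type 3 was. Fcna, a ficolin, stood at 127, 27.7 and 83.2 FPKM in knockout fat against 16.6, 15.6 and 7.34 FPKM in wild-type fat (log2 difference 2.33, SE 0.57). The lectin Cd209d lay the other way, at 1.61, 2.14 and 0.32 FPKM in knockout fat against 13, 7.23 and 8.35 FPKM in wild-type fat (log2 difference -2.22, SE 0.39). Complement genes lay higher in 8 of 25 cases and lower in 0 (median 0.33). Those 8 were 5 if knockout 2 was left out, 2 if knockout 1 or wild type 1 was, and 1 if wild type 3 was. C5ar1, the receptor of the C5a fragment, had a log2 difference of 1.64 (SE 0.40).

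Genes of antigen presentation differed by class. Of 22 tested genes of MHC class I and antigen processing, 4 lay higher and 1 lower (median -0.07), and the 4 were 2 if knockout 2 or wild type 2 was left out. H2-T23, a non-classical class I gene, had a log2 difference of 1.25 (SE 0.25), and Nlrc5, an activator of class I genes, one of -0.72 (SE 0.21); H2 genes are close in sequence, so their separate values are uncertain. Of 8 tested genes of MHC class II, 0 lay higher and 3 lower, with a median of -0.92 (-1.22 without both libraries numbered 2), and the groups were separate in 0. The 3 were 7 if knockout 2 was left out, and 0 if knockout 1, knockout 3, wild type 2 or wild type 3 was. H2-Aa stood at 70.4, 263 and 120 FPKM in knockout fat and at 188, 508 and 263 FPKM in wild-type fat. Dendritic cell markers lay above 0 in 5 of 10 cases and below in 5 (median 0.04), with 0 higher and 3 lower. The lectin Cd209a, one of those 3, stood at 0.28, 0.85 and 0.66 FPKM in knockout fat against 8.59, 3.11 and 7.78 FPKM in wild-type fat (log2 difference -2.15, SE 0.40). Interferon-stimulated genes showed no common direction, with 18 above 0 and 17 below (median 0.01). They lay lower in 6 of 35 cases and higher in 2. The 2 were 0 without knockout 1, knockout 2, wild type 2 or wild type 3, and 5 without knockout 3. The guanylate-binding protein Gbp2 stood at 30.1, 33.3 and 31.7 FPKM in knockout fat and at 58.1, 55.2 and 60.1 FPKM in wild-type fat (log2 difference -0.85, SE 0.20), and the chemokine Cxcl9 at 1.24, 2.45 and 1.25 FPKM against 9.64, 3.95 and 5.47 FPKM in wild-type fat.

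Genes of iron and haem handling were split, and red cell genes lay high. Of 26 tested genes of iron and haem handling 3 lay higher and 5 lower (median -0.10), and the groups were separate in 2 above and 8 below. The 3 were 6 if knockout 3 was left out, 5 if wild type 2 was and 1 if wild type 3 was. Hmox1, the inducible enzyme that degrades haem, stood at 248, 105 and 146 FPKM in knockout fat and at 37.7, 40.0 and 20.3 FPKM in wild-type fat (log2 difference 2.28, SE 0.40, limma adjusted p = 0.161). The ferritin heavy chain Fth1 stood at 1216, 1024 and 1146 FPKM against 540, 629 and 476 FPKM in wild-type fat (log2 difference 1.05, SE 0.32). On the lower side, Heph, a ferroxidase of iron export, had a log2 difference of -0.97 (SE 0.20), the metalloreductase Steap4 one of -1.33 (SE 0.33) and the transferrin receptor Tfrc one of -0.61 (SE 0.24). Of 8 tested red cell genes 7 lay higher and 0 lower (median 1.83, 2.21 without both libraries numbered 2). Alas2, the erythroid enzyme of haem synthesis, stood at 84.3, 30.9 and 72.1 FPKM in knockout fat and at 9.60, 12.3 and 25.6 FPKM in wild-type fat (log2 difference 1.91, SE 0.48). Hbb-b1 had 751, 168 and 411 FPKM against 73.9, 19.3 and 48.4 FPKM in wild-type fat, but the globin copies are near-identical and their separate values are uncertain. The summed red cell values ranged from 1957 to 7358 FPKM in knockout fat and from 1116 to 1227 FPKM in wild-type fat. The part of blood left in the tissue in the Hmox1 and Fth1 differences was not tested.

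Matrix genes differed by kind. Collagens lay near the background, with 0 of 27 higher, 2 lower and a median of -0.19. The 2 were 6 if knockout 2 was left out, 1 if wild type 3 was, and 0 if knockout 1, knockout 3 or wild type 2 was. Matricellular and related proteins, chosen by name pattern, lay higher in 7 of 42 cases and lower in 2 (median 0.29); the 7 were 4 without knockout 1 and 12 without knockout 3. Thbs2, a thrombospondin, stood at 82.9, 34.5 and 129 FPKM in knockout fat and at 7.25, 12.5 and 6.07 FPKM in wild-type fat (log2 difference 2.98, SE 0.49, limma adjusted p = 0.137). Thbs1, its relative, stood at 63.8, 110 and 76.8 FPKM against 18.3, 52.2 and 20.8 FPKM in wild-type fat (log2 difference 1.55, SE 0.43). Metalloproteases and their inhibitors lay higher in 6 of 33 cases and lower in 2 (median 0.33), and the 6 were 2 without wild type 3. Adamts4, an aggrecanase, stood at 2.91, 5.45 and 10.02 FPKM in knockout fat and at 1.11, 1.15 and 0.31 FPKM in wild-type fat (log2 difference 1.85, SE 0.44), whereas its relative Adamts5 lay low (-1.19, SE 0.38). Genes of TGF-beta and BMP signalling lay near the background, with 3 of 50 higher, 3 lower and a median of -0.05. The 3 higher were 8 if knockout 3 was left out. The 3 lower were 5 if knockout 3 was left out, 6 if wild type 2 was, 1 if knockout 2 or wild type 1 was and 0 if knockout 1 was. The receptors Bmpr1a and Acvr1c lay low, at -0.97 (SE 0.31) and -1.07 (SE 0.36). On the higher side Tgfb1 had a log2 difference of 0.88 (SE 0.24) and the stress cytokine Gdf15 one of 2.11 (SE 0.49).

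Endothelial genes lay higher in 4 of 23 cases and lower in 0, with a median of 0.15, 15 above 0 and 8 below. The 4 were 2 without both libraries numbered 2, and they included Lyve1, also counted among resident macrophage markers. The endothelial markers Cdh5 and Kdr had log2 differences of 0.08 (SE 0.46) and 0.15 (SE 0.40), and Nos3 one of -1.01 (SE 0.46). Plvap, a protein of vessel fenestrae, stood at 51.1, 32.1 and 51.8 FPKM in knockout fat and at 23.2, 16.3 and 20.6 FPKM in wild-type fat (log2 difference 1.11, SE 0.27). Adm, adrenomedullin, a vasodilator induced by low oxygen, stood at 42.0, 27.0 and 52.9 FPKM against 10.9, 11 and 16.6 FPKM in wild-type fat (log2 difference 1.57, SE 0.31). Progenitor markers lay near the background, with 1 of 17 higher, 1 lower and a median of -0.23. The higher one was Pdgfra at 0.91 (SE 0.29) and the lower one Cd34 at -0.87 (SE 0.24).

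Genes of cell division were higher in knockout 1 and knockout 2 than in knockout 3. Of 39 tested genes of DNA replication 12 lay higher and 0 lower (median 0.77, 0.72 without both libraries numbered 2). The 12 were 29 without knockout 3, 4 without knockout 1, 5 without knockout 2, and 7 if either wild type 1 or wild type 3 was left out. Chaf1b, which loads histones on new DNA, stood at 11.1, 9.23 and 6.41 FPKM in knockout fat and at 1.07, 3.26 and 0.31 FPKM in wild-type fat (log2 difference 2.1, SE 0.45). Of 33 mitotic genes 6 lay higher (median 1.28). Those 6 were 30 if knockout 3 was left out and 0 if knockout 1 or knockout 2 was. They were 10 if wild type 2 was left out, 3 if wild type 1 was and 2 if wild type 3 was. Over all tested genes, too, the count was highest without knockout 3 and lowest without wild type 3. Aurka, a mitotic kinase, stood at 7.28, 8.55 and 1.86 FPKM against 1.40, 1.12 and 0.21 FPKM in wild-type fat.

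Histone genes lay high in knockout fat. They lay higher in 32 of 77 cases and lower in 1 (median 1.45, 1.01 without both libraries numbered 2). The 32 were 55 without knockout 3. They were 17 if knockout 1 was left out, 15 if knockout 2 was, 12 if wild type 3 was, and 4 with both libraries numbered 2 left out. Hist1h1b, a linker histone of dividing cells, stood at 55.0, 73.0 and 19.7 FPKM in knockout fat and at 10.9, 11.5 and 2.65 FPKM in wild-type fat (log2 difference 2.43, SE 0.62). Hist1h2ba stood at 80.6, 301 and 43.9 FPKM against 34.2, 8.74 and 12.7 FPKM in wild-type fat. H3f3a, a replacement histone made outside the S phase, lay the other way. It stood at 48.8, 64.6 and 73.6 FPKM in knockout fat against 119, 203 and 163 FPKM in wild-type fat. H3f3b did not follow it, at 110, 90.3 and 107 FPKM against 75.9, 87.6 and 70.0 FPKM in wild-type fat (log2 difference 0.39, SE 0.23). Replication-dependent histone RNAs mostly lack poly(A) tails and their copies are close in sequence, so in libraries selected for poly(A) their values are uncertain.

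Many markers of tissue other than fat were uneven across single libraries, but some separated the groups. The muscle markers Myl1, Acta1 and Acta2 lay lower in every knockout library than in any wild-type library. Their log2 differences were -2.25 (SE 0.32), -1.86 (SE 0.57) and -1.28 (SE 0.44). The other tested muscle markers overlapped. Tgm4, a prostate marker, stood at 0.76, 0.73 and 0.66 FPKM in knockout fat against 2.43, 2.36 and 2.08 FPKM in wild-type fat. Chga, a granule protein of neuroendocrine cells, stood at 6.74, 50.6 and 0.38 FPKM in knockout fat and at 1.09, 0.66 and 0.95 FPKM in wild-type fat. The summed neuroendocrine list ranged from 34.1 to 193 FPKM in knockout fat and from 17.3 to 30.1 FPKM in wild-type fat. Between 0 and 3 of its genes were at 0 in knockout libraries and between 4 and 8 in wild-type libraries. Such counts depend on depth, and knockout 2, which had 0 of these genes at 0, had 3.29-fold the depth of knockout 3. Pcsk1, a prohormone convertase, was listed at 0 in all 3 wild-type libraries. TRAMP tumours can be neuroendocrine, and the libraries with most of these markers, knockout 2 and knockout 1, were also those with high cell division and histone genes. The part of such cells in those differences was not tested. The epithelial marker Epcam stood at 11.3, 18.2 and 1.59 FPKM in knockout fat and at 0.49, 0.34 and 38.0 FPKM in wild-type fat. Of 7 tested markers of epididymis and testis, 0 lay higher and 0 lower. Prm2, one of them, stood at 37.5 FPKM in knockout 2, 0.43 FPKM in wild type 3 and 0 elsewhere. Lcn5 stood at 9.80 FPKM in wild type 2 and at 0 elsewhere. The part of RNA from these tissues in the histone values was not tested.

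**Figure D4:**
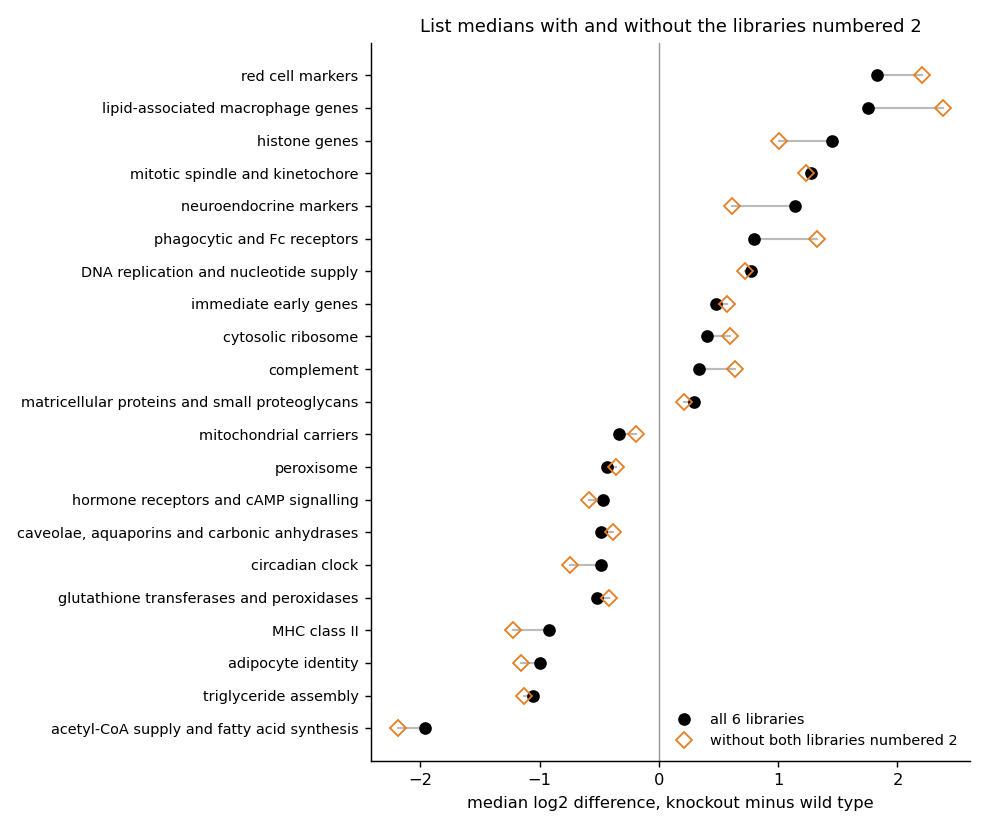
Median log2 difference (knockout minus wild type) of 21 gene lists with all 6 libraries (black circles) and without both libraries numbered 2 (orange diamonds). No list shown changed sign, and histone genes moved nearer to 0 (1.45 with all libraries, 1.01 without the pair).

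Several genes outside the lists were named for a small limma p, as Tmem45b and Tlcd1 were, or for a large difference, as Bche, Igfals and Cox8b were. Tmem45b, a membrane protein, stood at 43.3, 47.4 and 41.3 FPKM in knockout fat and at 189, 166 and 243 FPKM in wild-type fat (log2 difference -2.14, SE 0.24, limma adjusted p = 0.127). Tlcd1, a membrane protein that limits polyunsaturated phospholipids, stood at 6.71, 6.83 and 4.68 FPKM against 23.6, 22.1 and 21.6 FPKM in wild-type fat (log2 difference -1.74, SE 0.22). Bche, butyrylcholinesterase, stood at 9.25, 6.31 and 18.2 FPKM against 94.0, 43.3 and 86.6 FPKM in wild-type fat (log2 difference -2.67, SE 0.44). Igfals, the acid-labile partner of IGF-binding proteins, had a log2 difference of -2.73 (SE 0.61), and Cox8b, a cytochrome oxidase subunit of muscle and brown fat, one of -2.77 (SE 0.62). These genes were chosen among those whose groups did not overlap, so their separation comes from the choice. The knockout values of Tmem45b differed little among themselves.

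On the higher side, the homeobox gene Hlx stood at 11.7, 8.05 and 6.94 FPKM in knockout fat and at 2.45, 2.21 and 2.38 FPKM in wild-type fat (log2 difference 1.54, SE 0.25, limma adjusted p = 0.137). Mafg, a small partner of NRF2 and related factors, stood at 18.9, 18.8 and 21.5 FPKM against 10.1, 9.12 and 9.43 FPKM in wild-type fat (log2 difference 0.97, SE 0.19). The receptor chain Il10ra stood at 31.6, 25.6 and 24.7 FPKM in knockout fat and at 8.98, 12.8 and 5.46 FPKM in wild-type fat (log2 difference 1.55, SE 0.31), and Il3ra at 11, 7.54 and 12.7 FPKM against 1.85, 3.74 and 1.19 FPKM in wild-type fat (log2 difference 1.86, SE 0.35). Rbp7, a retinol-binding protein of fat and its endothelium, stood at 55.1, 29.0 and 171 FPKM against 14.5, 4.88 and 15.4 FPKM in wild-type fat (log2 difference 2.53, SE 0.67). Fam129b had a log2 difference of 2.02 (SE 0.42). For Hlx and Mafg the wild-type libraries, wild type 2 included, lay close to one another.

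**Figure D5:**
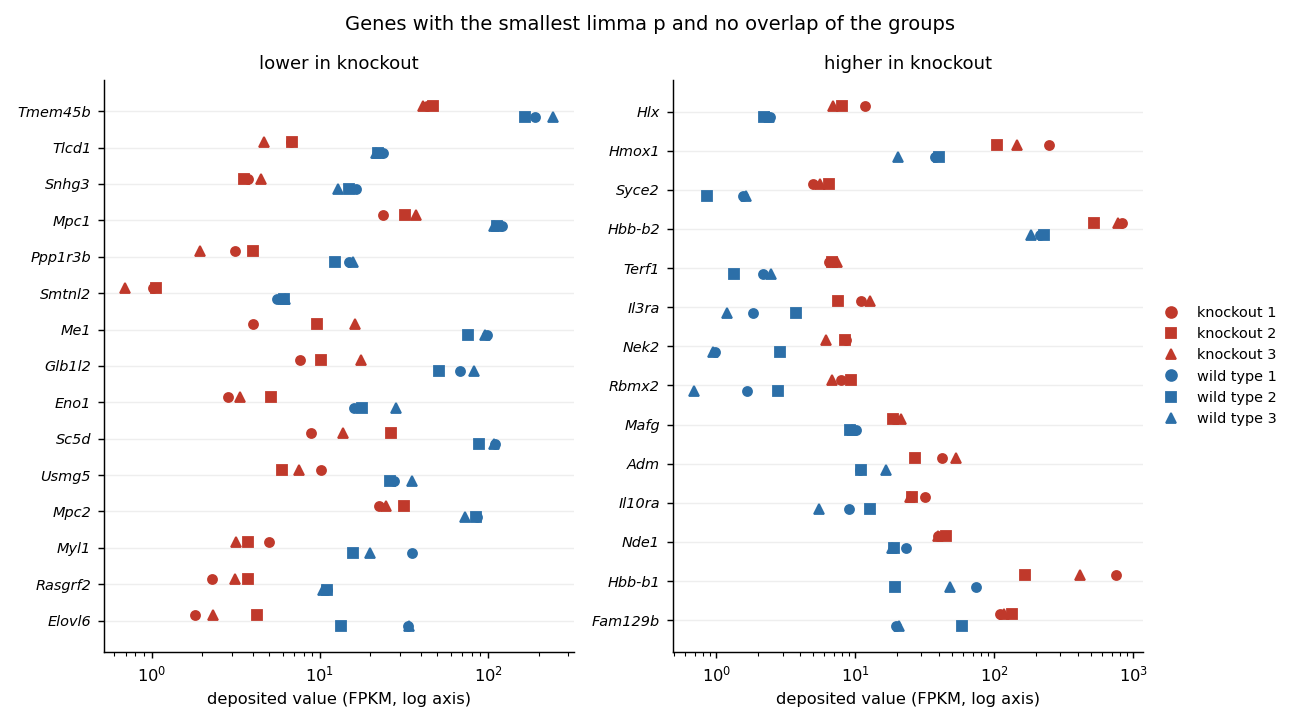
Deposited FPKM (log axis) in each fat library of genes from the 15 with the smallest limma p in each direction among those whose groups did not overlap; knockout libraries are red and drawn above wild-type libraries in blue, and symbols give the library number. Every row separates the groups by the choice of the genes, for example Me1 (4.0 to 16.3 FPKM in knockout fat against 75.8 to 98.3 FPKM in wild-type fat).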

How the data were processed

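Polyadenylated RNA of flash-frozen fat was made into directional libraries and read as single ends of 75 bases, per the labels' protocols. STAR, DESeq2 and mm10 are named, without versions or roles, in the submitters' processing notes. The authors deposited 1 normalized expression value per gene and library, read here as FPKM with a further scaling between libraries, because the values are not whole, their sums differ between libraries and very short entries have very high values. No header names the unit, and no source used here says how the deposited FPKM were computed by the authors. The table held 23360 entries, of which 27 were symbols turned into dates. The tumour table was not used here.

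Genes with a mean of at least 1 over the 6 libraries were tested on log2(FPKM + 1), with a pseudocount of 1, which understates differences of low genes. limma 3.58.1 in R 4.3.3 compared 3 knockout with 3 wild-type libraries with a trended prior variance, and p-values were adjusted over all 13617 genes by Benjamini-Hochberg. The procedure was tested on simulated data. Absolute depth is unknown.

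Named genes were Sqstm1 and the markers, the 15 with the smallest p and the 10 with the largest difference in each direction among genes whose groups did not overlap (no date-like symbols, pseudogenes, Gm, Rik or small RNA entries), up to 4 members of each list by p, members defining a list by role, and genes passing the test. Other genes were chosen after their values were seen. Some genes that the rule names are not reported here. The members and the 62 lists were chosen with earlier results of these data known. Alternatives were a pseudocount of 0.1, other filters on low values, quantile normalization, no trend with a robust prior, a replicate block, entries of under 300 bases left out, and libraries left out.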

Additional observations from a re-analysis of the deposited data

How the results depend on the processing

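Fitting the replicate number as a block called 1 gene, as without it, and counted 2220 genes at an unadjusted p under 0.05, against 2045 without it. With the block, the log2 difference of Sqstm1 was -1.33 (SE 1.65). The block changed no call. Same-numbered libraries of the groups had correlations of deviations of -0.0545, 0.148 and 0.155, so the numbers were not taken to pair them, and knockout 3 correlated more with wild type 1 (0.168) than with wild type 3. Leaving out entries under 300 bases removed Snord61 and left 0 calls, and leaving out both libraries numbered 2 gave 2, Snord61 and Snord70. Leaving out each library in turn gave between 1 and 3 calls, between 1274 (without wild type 3) and 2874 (without knockout 3) genes at an unadjusted p under 0.05, and between 3781 and 5621 genes whose groups did not overlap. That last count was 6215 without both libraries numbered 2, where fewer libraries make separation easier. Sqstm1 lay between -2.95 (without wild type 2) and -0.479 (without wild type 3) when single libraries were left out.

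With all 6 libraries, adjusted p did not fall under 0.05 for the named genes other than Snord61, so these values are sizes and not calls. Of the 62 list medians, 31 moved by more than their spread under at least 1 alternative. With no absolute depth, precision of low genes cannot be given, and 462 tested genes were listed at 0 in at least 1 library. When single libraries were left out, differences near 0 changed sign. They ranged from -0.67 to 0.89 for Acacb, from -0.051 to 0.37 for Fabp4, from -0.56 to 0.077 for Fads1, from -0.54 to 0.28 for Lpin3 and from -0.34 to 0.021 for Nr1h3. Without both libraries numbered 2, Epcam lay at -0.43, Lpin3 at 0.40 and Nr1h3 at 0.13.

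The causes of these differences were not tested.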
